A study of Homo sapiens with 12 samples.

Results

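The 48 genes described here encode nuclear subunits of respiratory complex I (35 genes) and the factors that assemble it (13 genes). They were taken by symbol from a fixed list and mapped to Ensembl gene ids through the GENCODE 29 annotation. All 48 were found among the 58735 genes of both deposited FPKM tables. FPKM is the fragments counted on a gene, scaled to its exon length and to a read total of the library. Subunits were grouped by the module of the complex in which they sit. The N module had 10 genes, the Q module 5, the ND1 module 3, the ND2 module 6, the ND4 module 6 and the ND5 module 5.

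RNA sequencing of poly-A RNA was performed on 12 libraries of an established human breast cancer cell line, 3 in each of 4 groups. The SK-BR-3 group was the parental line, which overexpresses HER2, and the SK/EPI group was an epirubicin-resistant line derived from it by prolonged exposure to rising concentrations of epirubicin, an anthracycline that poisons topoisomerase II. The SK/EPI-siNC and SK/EPI-siBCRP groups were SK/EPI cells transfected for 48 h, with Lipofectamine RNAiMax, with a control siRNA or with siRNA against BCRP, the drug efflux transporter encoded by ABCG2. SK/EPI was 1 resistant line, so a difference from SK-BR-3 describes that line only. By the study's methods each kind of cell was made in triplicate before lysis, without saying whether these were independent cultures. The p-values then measure the spread between libraries, which may be technical.

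Complex I oxidises NADH, passes the electrons to ubiquinone and pumps protons across the inner mitochondrial membrane. Its N module in the matrix binds NADH, its Q module reduces ubiquinone, and the ND1, ND2, ND4 and ND5 modules form the membrane arm, each built around proton-pumping or quinone-site subunits encoded in mitochondrial DNA. Core subunits, conserved from bacteria, carry the flavin and the iron-sulfur clusters, supernumerary subunits surround them, and assembly factors join the modules and leave the finished enzyme. Breast cancer cells depend on the respiratory chain to differing degrees, and complex I is also a source of reactive oxygen species.

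Upstream sequence that holds a motif match is shown for 3 subunit genes that were lower in SK/EPI cells and higher after BCRP silencing. It is also shown for 1 assembly factor gene that was higher in SK/EPI cells. Each line holds the 250 bases before the RefSeq start (GRCh38.p14), 5′ to 3′ on the strand of the gene, and capitals mark matches, on either strand, to the core motif of NRF1 (the palindromic GC-rich site, with any base at its centre) or of the ETS factor GABPA (CCGGAAG), both known regulators of respiratory chain genes.
NDUFS3, Q module, chr11:47578824-47579073, plus strand, ETS matches: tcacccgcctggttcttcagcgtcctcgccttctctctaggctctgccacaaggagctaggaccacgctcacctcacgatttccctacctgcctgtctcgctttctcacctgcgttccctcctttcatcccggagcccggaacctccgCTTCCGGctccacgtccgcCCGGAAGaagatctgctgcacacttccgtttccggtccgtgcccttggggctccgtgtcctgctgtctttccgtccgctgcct
NDUFA12, N module, chr12:95003698-95003947, minus strand, NRF1 match: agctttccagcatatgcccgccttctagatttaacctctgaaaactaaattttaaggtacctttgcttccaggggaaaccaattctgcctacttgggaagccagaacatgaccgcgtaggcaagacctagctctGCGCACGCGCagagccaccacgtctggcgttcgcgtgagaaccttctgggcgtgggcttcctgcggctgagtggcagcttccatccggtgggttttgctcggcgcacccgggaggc
NDUFA3, ND1 module, chr19:54102605-54102854, plus strand, NRF1 matches: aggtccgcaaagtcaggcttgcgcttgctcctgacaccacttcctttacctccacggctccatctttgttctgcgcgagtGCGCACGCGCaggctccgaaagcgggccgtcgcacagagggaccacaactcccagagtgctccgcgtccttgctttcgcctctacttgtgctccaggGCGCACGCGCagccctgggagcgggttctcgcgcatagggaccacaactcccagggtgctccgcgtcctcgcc
TIMMDC1, assembly factor, chr3:119498297-119498546, plus strand, ETS matches: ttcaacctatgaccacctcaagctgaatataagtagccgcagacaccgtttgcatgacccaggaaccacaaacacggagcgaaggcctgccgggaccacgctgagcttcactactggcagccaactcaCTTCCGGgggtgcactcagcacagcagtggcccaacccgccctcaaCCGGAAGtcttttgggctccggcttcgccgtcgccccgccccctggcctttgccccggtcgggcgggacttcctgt

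Such a window was found by symbol for 43 of the 48 members, 32 subunits and 11 assembly factors, and in 39 of them the RefSeq start lay within 50 bases of a GENCODE 29 transcript start. The NRF1 motif was in the windows of 5 of 32 subunits (15.6%), NDUFB4, NDUFA9, NDUFA12, NDUFA11 and NDUFA3, and of 1 of 11 factors, ACAD9, beside 5.53% of all 27305 promoters. The ETS motif was found for the subunits NDUFS1, NDUFS3, NDUFB7, NDUFA13 and NDUFA1 (15.6%) and the factors TIMMDC1 and NDUFAF4, beside 8.82% of all promoters. The YY1 motif ATGGCGG was found for NDUFS8, NDUFA7, NDUFA13 and NDUFAF7 (3 of 32 subunits, or 9.38%, and 1 of 11 factors), beside 2.83% of all promoters, and the ERR motif TCAAGGTCA, in 0.319% of all promoters, was not in any of the 43 windows. NDUFA13 held both an ETS and a YY1 match. The windows of NDUFV1, NDUFA6 and NDUFAB1, also lower in SK/EPI cells and higher after silencing, held no match to any of these motifs. Genes with a match moved in different ways. Of the 6 genes with an NRF1 match, NDUFA9, NDUFA12 and NDUFA3 were lower in SK/EPI cells and higher after silencing, NDUFA11 was higher in SK/EPI cells, NDUFB4 was higher after silencing only, and ACAD9 passed the test in neither comparison.

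The 12 libraries held 15830381 to 20545811 reads on genes, recovered from the FPKM values, and a single member had between 4 and 7767 reads in a library. ABCG2 was at 0.0750, 0.0220 and 0.0520 FPKM in SK-BR-3, 33.9, 35.9 and 32.7 in SK/EPI, 32.5, 32.7 and 33.7 in SK/EPI-siNC and 2.84, 3.47 and 2.91 FPKM in SK/EPI-siBCRP libraries. All 3 silenced libraries were far under the controls. Of the luminal markers, KRT8, KRT18, KRT19 and EPCAM were high in every library, while CDH1 was at or near 0 in all 12. The summed level of the 10 luminal markers was 3659 to 3859 FPKM in SK-BR-3 and 2393 to 2525 FPKM in SK/EPI cells. KRT19 went from 1719, 1652 and 1581 FPKM in SK-BR-3 to 498, 511 and 519 FPKM in SK/EPI libraries. ERBB2 went from 662, 652 and 662 to 128, 135 and 136 FPKM, and GRB7 was also lower. KRT8, KRT18, GATA3 and CLDN4 were higher in SK/EPI cells (limma, adjusted p under 0.05), and EPCAM and ESRP1 did not pass. The summed level of 6 leukocyte markers was 4.24 to 4.57 FPKM in SK-BR-3 and 32.3 to 34.3 FPKM in SK/EPI cells, in the latter almost all CD14 and CSF1R with PTPRC near 0. That of 3 endothelial markers was 6.67 to 6.99 and 27.0 to 28.1 FPKM, almost all of it CDH5, and that of 6 fibroblast markers lay between 1.36 and 1.96 FPKM in all groups. With the control siRNA the luminal sum was 2790 to 2842 FPKM, the leukocyte sum 14.3 to 15.2 and the endothelial sum 13.9 to 14.1 FPKM. With the BCRP siRNA these were 2356 to 2403, 15.0 to 16.2 and 22.3 to 22.5 FPKM. The part of these markers in the results on complex I was not tested. In bulk RNA, fewer cells of a kind and less RNA per cell cannot be told apart.

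In SK/EPI cells most complex I genes were downregulated relative to the parental line. Of the 47 members with enough reads to be tested, 29 were lower and 7 were higher at an adjusted p under 0.05 (limma on log2(FPKM + 1), Benjamini-Hochberg adjustment over the 15823 genes tested), and 11 did not pass. Over all genes tested, 74.9% were called in either direction, 37.0% lower and 37.9% higher, with a median log2 fold change of 0.01, while the median of the members was -0.29. Among subunits 22 were lower, 3 higher and 9 not called of 34 tested (median -0.35). Among assembly factors 7 were lower, 4 higher and 2 not called of 13 (median -0.22). Core subunits were lower in 5 of 6 cases (median -0.44), the exception being NDUFV2, which was called lower in 4 of the alternative analyses.

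After BCRP silencing the members moved the other way. In SK/EPI-siBCRP cells relative to SK/EPI-siNC cells, 27 of 48 members were higher, 1 was lower and 20 did not pass the test, beside 38.1% of all 16298 genes tested called in either direction, 19.4% higher and 18.7% lower. The median log2 fold change of the members was 0.20 and that of all genes was -0.00. Among subunits 23 were higher and 1 lower of 35 (median 0.31), and 4 of 13 assembly factors were higher (median 0.10). No factor was called lower by limma (1 at an unadjusted p under 0.05, and 0 at an adjusted p under 0.05 by limma voom on the recovered reads). Whether subunits and assembly factors differ from each other was not tested.

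**Figure D1:**
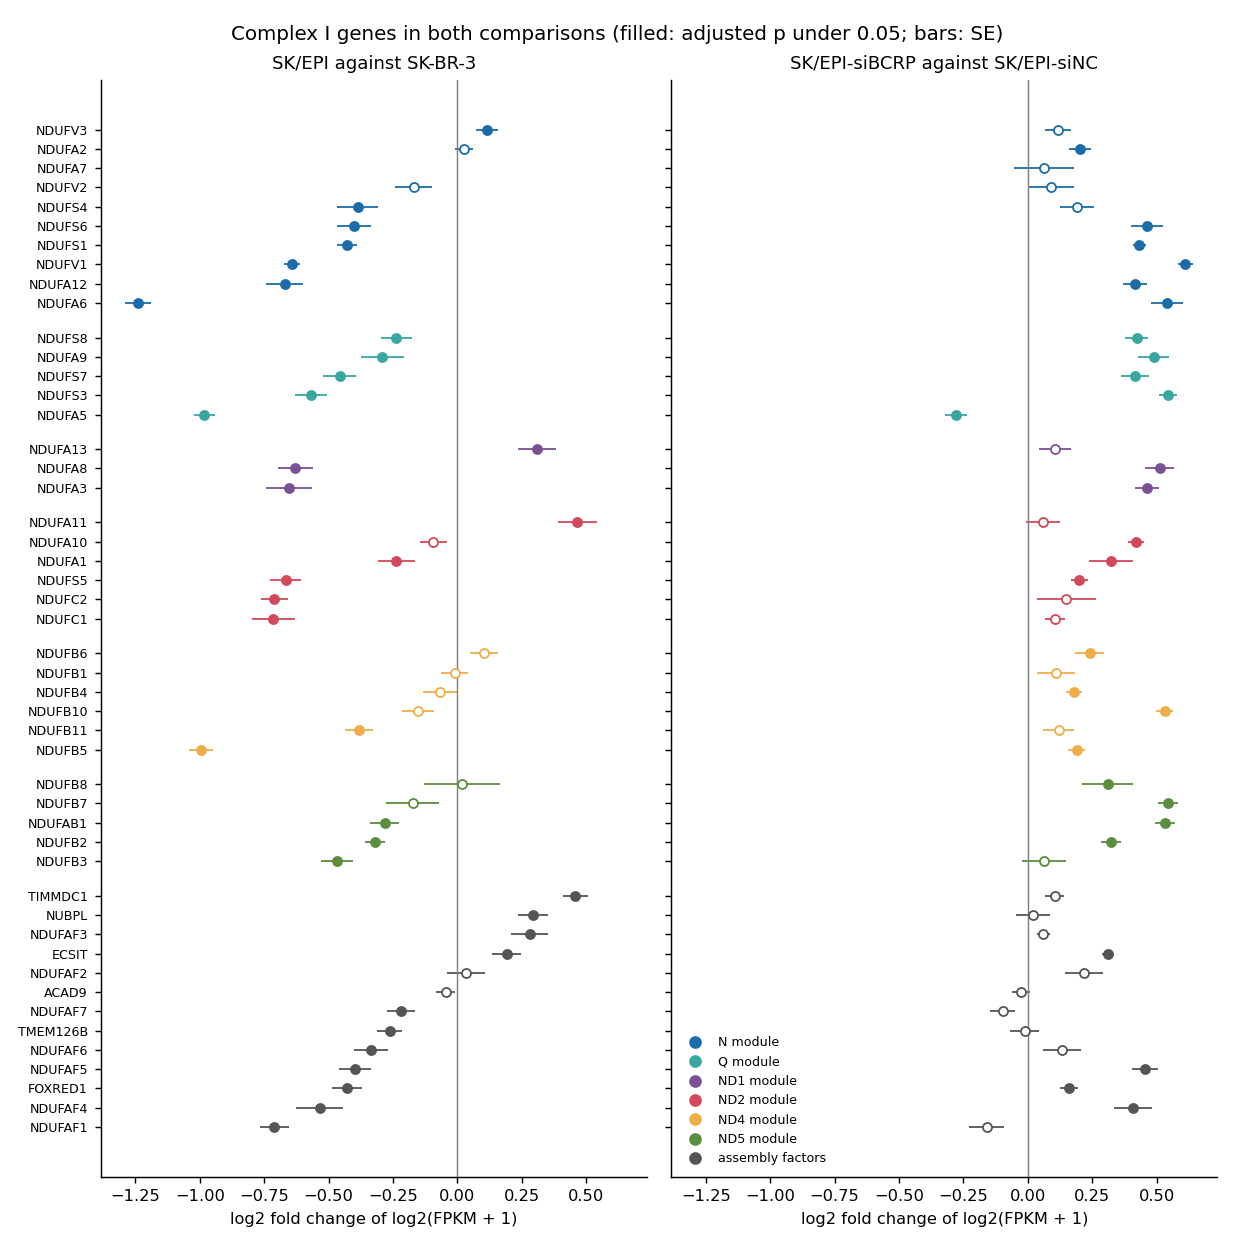
Log2 fold change of log2(FPKM + 1) with its SE (horizontal bars) for each complex I gene, grouped by module in colour, in SK/EPI against SK-BR-3 (left) and SK/EPI-siBCRP against SK/EPI-siNC (right), with filled points for an adjusted p under 0.05. On the left 29 of 47 points are filled and below 0, and on the right 27 of 48 are filled and above 0, with NDUFA5 the 1 filled point below 0.

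The N module, which takes the electrons from NADH, had 6 genes lower and 1 higher of 9 tested in SK/EPI cells (median -0.40) and 6 higher of 10 after silencing (median 0.31). NDUFA6, a LYR-motif protein at the border of the N and Q modules, had the largest fall of all members. Its level was 60.03, 60.3 and 53.5 FPKM in SK-BR-3 and 24.4, 24.3 and 23.2 FPKM in SK/EPI libraries, a log2 fold change of -1.24 ± 0.05 (SE) with an adjusted p of 1.96e-07. The 2 groups were far apart. With the control siRNA the NDUFA6 libraries read 26.6, 22.8 and 27.1 FPKM and with the BCRP siRNA 37.9, 36.2 and 38.3 FPKM (log2 fold change 0.54 ± 0.06 SE, adjusted p = 5.16e-04), again without overlap. The gene lies on chr22:42085525-42090955, minus strand, of GRCh38.

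NDUFV1, the core subunit that binds NADH and the flavin, had the largest rise after silencing on the log2(FPKM + 1) scale. By the ratio of group means NDUFA9 (1.75) and NDUFAF5 (1.63) exceeded NDUFV1 (1.54). NDUFV1 was at 47.02, 44.9 and 44.8 FPKM in SK/EPI-siNC and 71.9, 68.3 and 70.3 FPKM in SK/EPI-siBCRP libraries (log2 fold change 0.61 ± 0.03 SE, adjusted p = 1.09e-05). It was at 69.2, 67.3 and 66.4 FPKM in SK-BR-3 against 42.4, 42.6 and 43.9 FPKM in SK/EPI libraries (log2 fold change -0.64 ± 0.03 SE, adjusted p = 5.03e-07). All 3 libraries of each group lay on 1 side of the other group in both comparisons. NDUFS1, the large iron-sulfur core subunit, NDUFS6, which binds zinc, and NDUFA12 were also lower in SK/EPI cells and higher after silencing, with log2 fold changes of -0.43, -0.40 and -0.67 in the former comparison and 0.43, 0.46 and 0.42 in the latter. NDUFV1 lies on chr11:67605653-67612554, plus strand.

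The other N module genes departed from this pattern. NDUFV3, a small subunit beside NDUFV1, was the only one called higher in SK/EPI cells, at 5.34, 5.41 and 5.21 FPKM in SK-BR-3 and 5.93, 5.82 and 5.76 FPKM in SK/EPI libraries (log2 fold change 0.11 ± 0.04 SE, adjusted p = 0.0398). This call was lost when any single library was left out (adjusted p between 0.0587 and 0.101). After silencing, NDUFV3 read 4.91, 4.70 and 5.31 against 5.42, 5.32 and 5.70 FPKM, a difference that did not pass (log2 fold change 0.12 ± 0.05 SE, adjusted p = 0.113). NDUFS4, an accessory subunit needed to keep the N module attached, fell in SK/EPI cells, from 24.7, 22.4 and 22.7 to 17.01, 15.9 and 19.98 FPKM (log2 fold change -0.39 ± 0.08 SE, adjusted p = 0.00244). It read 17.9, 17.6 and 15.5 FPKM with the control siRNA and 20.6, 18.1 and 19.9 FPKM with the BCRP siRNA (log2 fold change 0.19 ± 0.07 SE, adjusted p = 0.0550), where the libraries were apart but the test was not passed. NDUFA2, which has a thioredoxin-like fold, did not pass in SK/EPI cells (log2 fold change 0.03) and was higher after silencing (0.20).

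NDUFV2 and NDUFA7 were barely counted. NDUFV2, a core subunit that carries an iron-sulfur cluster, was at 1.02, 0.817 and 0.949 FPKM in SK-BR-3, 0.753, 0.572 and 0.827 in SK/EPI, 0.792, 0.988 and 0.840 in SK/EPI-siNC and 1.23, 0.787 and 0.992 FPKM in SK/EPI-siBCRP libraries. It passed in neither comparison, and its groups overlapped in both. In SK/EPI cells it was called lower in 4 of the alternative analyses (limma, adjusted p 0.0363 to 0.0462), those with the replicate block, with that block and exon length adjustment, without SK-BR-3 replicate 2 and without SK/EPI replicate 3. NDUFA7 was at 0.535, 0.313 and 0.260 FPKM in SK-BR-3 and 0.433, 0.157 and 0.264 FPKM in SK/EPI libraries, under the filter on low genes. It was at 0.341, 0.409 and 0.394 against 0.182, 0.535 and 0.659 FPKM in the siRNA libraries, where it did not pass. Both genes share most of their coding bases with exons of another annotated gene, as set out further on.

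The Q module, which hands the electrons to ubiquinone, was lower in SK/EPI cells in all 5 genes listed here (median -0.46), and higher after silencing in 4 of 5 (median 0.42). NDUFS3, a core subunit among the first to be assembled, was at 21.2, 20.8 and 18.04 FPKM in SK-BR-3 and 13.1, 13.7 and 12.7 FPKM in SK/EPI libraries (log2 fold change -0.57 ± 0.06 SE, adjusted p = 6.99e-05). After silencing it had the largest rise of the module on the log2(FPKM + 1) scale, from 12.8, 13.1 and 12.6 FPKM to 19.4, 18.4 and 19.8 FPKM (log2 fold change 0.55 ± 0.03 SE, adjusted p = 3.18e-05). The groups did not overlap in either comparison, and its window printed above holds a pair of ETS matches. NDUFS7 and NDUFS8, the core subunits that carry the last iron-sulfur clusters before ubiquinone, fell by 0.46 and 0.24 on the log2 scale in SK/EPI cells and were both 0.42 higher after silencing. NDUFA9, a subunit at the quinone site, fell by 0.29 on the log2 scale and was 0.49 higher after silencing, at 1.28, 1.10 and 1.11 against 1.97, 2.18 and 1.97 FPKM. Its ratio of means after silencing was 1.75, above the 1.495 of NDUFS3.

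NDUFA5 was the 1 member that was lower in both comparisons. This small supernumerary subunit, with NDUFS3 part of the earliest Q module intermediate, was at 23.7, 24.3 and 24.5 FPKM in SK-BR-3 and 11.2, 12.3 and 11.7 FPKM in SK/EPI libraries, the largest fall of its module (log2 fold change -0.98 ± 0.04 SE, adjusted p = 2.20e-07). With the control siRNA it was at 10.5, 9.82 and 10.4 FPKM, and with the BCRP siRNA it was lower still, at 7.98, 8.70 and 8.13 FPKM (log2 fold change -0.28 ± 0.04 SE, adjusted p = 0.00212). Neither pair of groups overlapped, and both calls held in every refit. NDUFA5 lies on chr7:123536997-123558255, minus strand.

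**Figure D2:**
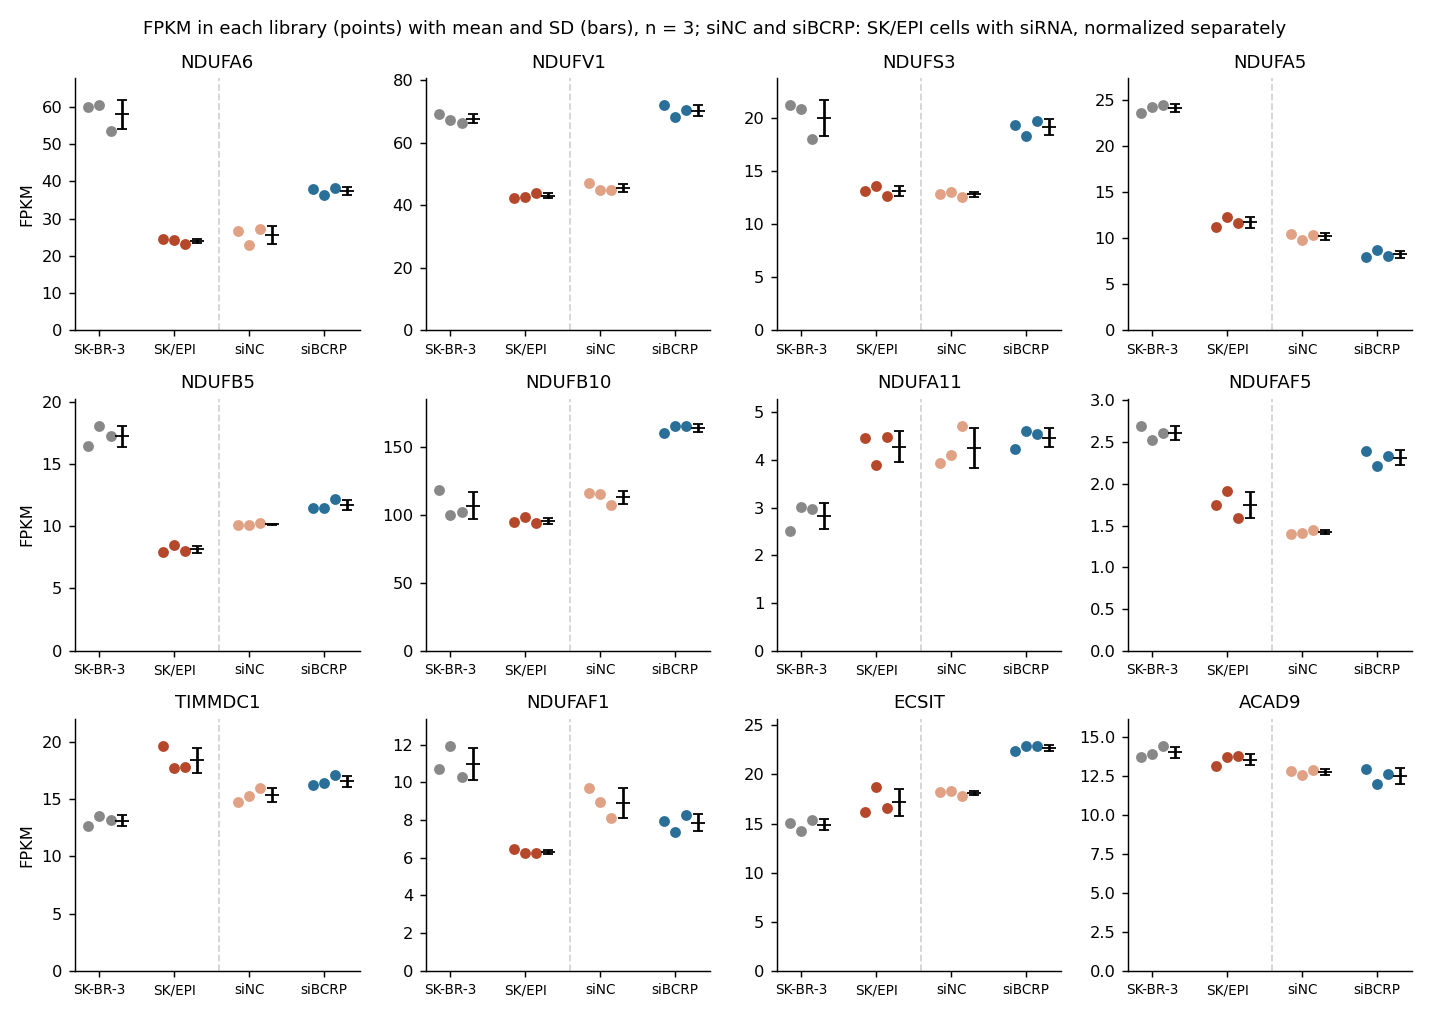
FPKM of 12 complex I genes in each of the 12 libraries (points, 3 a group) with the group mean and SD (bars), where siNC and siBCRP are SK/EPI cells with control or BCRP siRNA. NDUFA6, NDUFV1 and NDUFS3 drop in SK/EPI and are higher with the BCRP siRNA, NDUFA5 drops in both comparisons, and NDUFA11 and TIMMDC1 are higher in SK/EPI. The left and right pairs of groups were normalized in separate tables.

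The ND1 module, at the base of the membrane arm, had 2 genes lower and 1 higher in SK/EPI cells (median -0.63). NDUFA3, a single-span membrane protein, was at 17.3, 14.8 and 13.6 FPKM in SK-BR-3 and 8.49, 10.02 and 9.34 FPKM in SK/EPI libraries (log2 fold change -0.65 ± 0.09 SE, adjusted p = 2.39e-04), the largest fall of the module. NDUFA8, a twin-CX9C protein of the intermembrane space, had the largest rise after silencing, from 41.1, 35.8 and 35.2 to 52.3, 54.2 and 54.4 FPKM (log2 fold change 0.51 ± 0.06 SE, adjusted p = 3.99e-04). Both genes were lower in SK/EPI cells and higher after silencing with no overlap between libraries.

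NDUFA13, also known as GRIM-19, went against the rest of the ND1 module. It was at 0.582, 0.716 and 0.814 FPKM in SK-BR-3 and 1.24, 1.14 and 0.946 FPKM in SK/EPI libraries (log2 fold change 0.31 ± 0.07 SE, adjusted p = 0.00605). In the siRNA libraries it was at 1.34, 1.24 and 1.20 against 1.56, 1.30 and 1.45 FPKM, where the groups overlapped (log2 fold change 0.11 ± 0.06 SE, adjusted p = 0.211). Only 25 to 83 reads were counted on it, with 55.2% of its coding bases inside exons of another gene, and the part of the shared bases in this rise was not tested.

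In the ND2 module 4 of 6 genes were lower and 1 higher in SK/EPI cells (median -0.45), and 3 were higher after silencing (median 0.17). NDUFC1, a single-span subunit, and NDUFC2, its neighbour in the complex, had the largest falls, which differed by less than their SEs. NDUFC1 went from 23.3, 22.9 and 21.7 FPKM in SK-BR-3 to 11.6, 15.1 and 13.8 FPKM in SK/EPI libraries (log2 fold change -0.71 ± 0.08 SE, adjusted p = 1.00e-04). NDUFC2 went from 7.70, 7.39 and 7.46 to 3.89, 4.403 and 4.35 FPKM (log2 fold change -0.71 ± 0.05 SE, adjusted p = 7.34e-06), and the ratios of means were 0.595 for NDUFC1 and 0.560 for NDUFC2. Neither passed after silencing. NDUFC1 was at 18.8, 18.2 and 17.7 against 20.5, 18.7 and 19.9 FPKM (log2 fold change 0.11 ± 0.04 SE, adjusted p = 0.0740). NDUFC2 was at 3.54, 2.71 and 4.07 against 4.09, 3.52 and 4.08 FPKM in the siRNA libraries (log2 fold change 0.15 ± 0.11 SE, adjusted p = 0.343). NDUFS5, a twin-CX9C protein, was the most abundant member per kilobase of merged exon in every group, at 304, 314 and 274 FPKM in SK-BR-3, 179, 187 and 195 in SK/EPI, 193, 194 and 190.5 in SK/EPI-siNC and 210.4, 224 and 228 FPKM in SK/EPI-siBCRP libraries. It was called lower and then higher (log2 fold changes -0.67 and 0.20). NDUFA1 was also called lower and then higher (-0.24 and 0.32), but each call was lost in some refits.

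NDUFA10 and NDUFA11 were the departures in the ND2 module. NDUFA10, a subunit with a nucleoside kinase fold, did not pass in SK/EPI cells, at 14.3, 15.2 and 14 against 12.9, 14.6 and 13.1 FPKM (log2 fold change -0.09 ± 0.05 SE, adjusted p = 0.146). It had the module's largest rise after silencing, from 15.1, 14.2 and 14.8 to 19.8, 19.8 and 20.6 FPKM (log2 fold change 0.42 ± 0.03 SE, adjusted p = 6.80e-05). NDUFA11, a four-helix subunit related to TIM17, showed the largest rise of all members in SK/EPI cells on the log2(FPKM + 1) scale, from 2.50, 3.01 and 2.96 to 4.46, 3.90 and 4.48 FPKM (log2 fold change 0.47 ± 0.08 SE, adjusted p = 7.02e-04). By the ratio of means NDUFA13 (1.58) exceeded NDUFA11 (1.52). It was at 3.93, 4.10 and 4.72 against 4.24, 4.61 and 4.55 FPKM in the siRNA libraries, which overlapped (log2 fold change 0.06 ± 0.07 SE, adjusted p = 0.514). NDUFA11 lies on chr19:5891276-5904006, minus strand, and shares 36.9% of its coding bases with a gene on the same strand.

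The ND4 module, toward the far end of the membrane arm, had 2 of 6 genes lower in SK/EPI cells (median -0.11), beside 37.0% of all genes tested. NDUFB5, a single-span subunit on chr3:179604690-179627647, had the second largest fall among all members, from 16.4, 18.1 and 17.2 to 7.94, 8.49 and 8.01 FPKM (log2 fold change -0.996 ± 0.05 SE, adjusted p = 4.19e-07). After silencing it rose a little, from 10.1, 10.1 and 10.2 to 11.5, 11.5 and 12.2 FPKM (log2 fold change 0.19 ± 0.03 SE, adjusted p = 0.00341). The libraries were separate in both comparisons. NDUFB11 was also lower in SK/EPI cells (log2 fold change -0.38), with reads that cannot be told apart from those of RBM10 where their exons overlap, and in the siRNA libraries was at 33.4, 32.4 and 29.4 against 34.8, 32.03 and 36.8 FPKM, which overlapped (log2 fold change 0.12 ± 0.06 SE, adjusted p = 0.166).

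NDUFB10, a twin-CX9C subunit, had the largest rise of the ND4 module after silencing, from 116, 116 and 108 to 161, 166 and 166 FPKM (log2 fold change 0.53 ± 0.03 SE, adjusted p = 3.39e-05). In SK/EPI cells it narrowly missed the threshold, at 118, 100.3 and 102 FPKM in SK-BR-3 and 94.8, 98.5 and 94.5 FPKM in SK/EPI libraries (log2 fold change -0.15 ± 0.06 SE, adjusted p = 0.0544). It passed in 7 of the alternative analyses. NDUFB4 and NDUFB6 did not pass in SK/EPI cells (log2 fold changes -0.07 and 0.10) and were higher after silencing (0.18 and 0.24). NDUFB1 passed in neither, at 13.5, 12.4 and 11.7 FPKM in SK-BR-3 against 12.1, 12.6 and 12.5 in SK/EPI libraries and 12.4, 11 and 12.2 in SK/EPI-siNC against 12.3, 11.98 and 14.4 FPKM in SK/EPI-siBCRP libraries.

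In the ND5 module, at the tip of the membrane arm, 3 of 5 genes were lower in SK/EPI cells (median -0.28) and 4 were higher after silencing (median 0.32). NDUFB3 had the largest fall, from 29.6, 25.6 and 26.1 to 19.6, 20.1 and 18.2 FPKM (log2 fold change -0.47 ± 0.06 SE, adjusted p = 2.02e-04). It did not pass after silencing, at 26.9, 21.8 and 25.1 against 24.1, 24.7 and 28.4 FPKM with overlap (log2 fold change 0.06 ± 0.08 SE, adjusted p = 0.598). NDUFB7, another twin-CX9C protein, had the largest rise after silencing, from 109, 109 and 102 to 159, 149 and 159.9 FPKM (log2 fold change 0.54 ± 0.04 SE, adjusted p = 5.60e-05). Its SK-BR-3 and SK/EPI libraries overlapped, at 187, 144 and 141 against 133, 146 and 135 FPKM. NDUFAB1, the mitochondrial acyl carrier protein, of which a copy also binds NDUFA6 at the N module, was lower and then higher (log2 fold changes -0.28 and 0.53), as was NDUFB2 (-0.32 and 0.32). NDUFB8 did not pass in SK/EPI cells (0.02) and was called higher after silencing (0.31), on 91 to 160 reads and with overlapping libraries, and that call was lost in 11 of the alternative analyses.

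**Figure D3:**
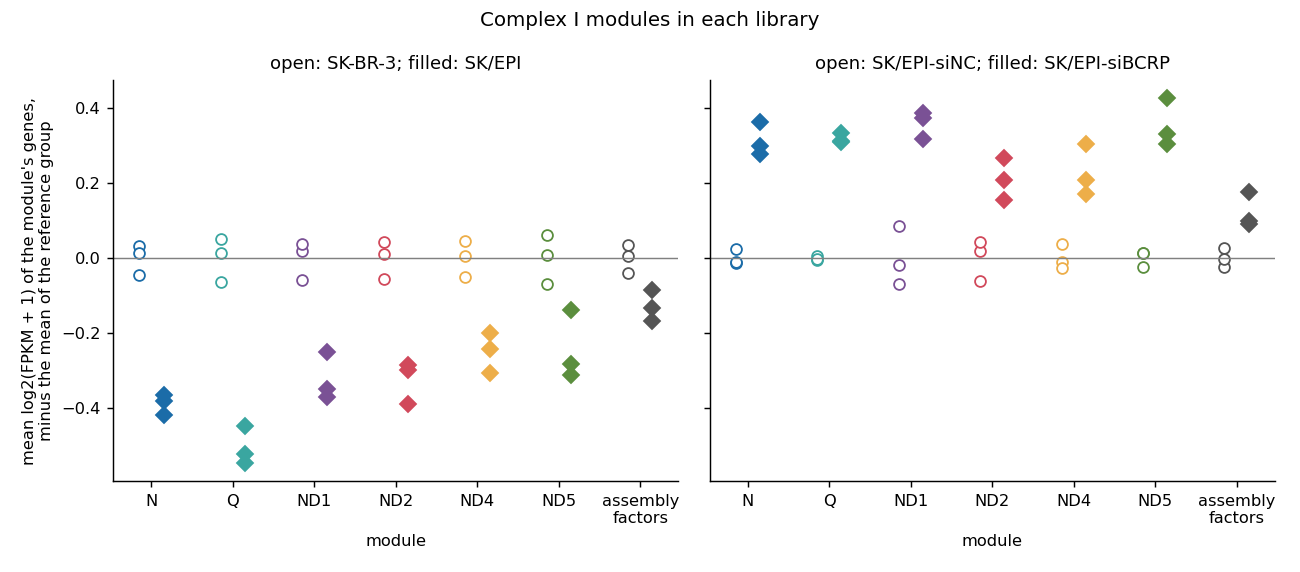
Mean of log2(FPKM + 1) over the genes of each complex I module in each library, as the difference from the mean of the reference group (left, SK-BR-3, open circles, against SK/EPI, filled diamonds; right, SK/EPI-siNC, open, against SK/EPI-siBCRP, filled). In every module the 3 filled points lie on 1 side of the 3 open points, and the assembly factors are the group closest to 0.

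At the level of whole modules, the mean of log2(FPKM + 1) over the 10 N module genes was 4.16 ± 0.04 (SD, n = 3) in SK-BR-3 and 3.78 ± 0.03 (SD, n = 3) in SK/EPI cells, and that over the 5 Q module genes was 3.45 ± 0.06 (SD, n = 3) and 2.94 ± 0.05 (SD, n = 3). After silencing the N module mean went from 3.81 ± 0.02 (SD, n = 3) to 4.13 ± 0.04 (SD, n = 3) and the Q module mean from 2.77 ± 0.01 (SD, n = 3) to 3.09 ± 0.01 (SD, n = 3). The peripheral arm, which both modules form, had 11 of 14 tested genes lower and 1 higher in SK/EPI cells (median log2 fold change -0.41) and 10 higher and 1 lower of 15 after silencing (median 0.42). For the membrane arm these counts were 11 lower and 2 higher of 20 (median -0.26) and 13 higher of 20 (median 0.22). The assembly factor mean moved less, from 3.16 ± 0.04 (SD, n = 3) to 3.03 ± 0.04 (SD, n = 3) in SK/EPI cells and from 3.05 ± 0.02 (SD, n = 3) to 3.18 ± 0.05 (SD, n = 3) after silencing. Differences between modules were not tested.

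Assembly factors were called in both directions in SK/EPI cells. The MCIA complex, which builds the ND2 module and is described here with TIMMDC1, the factor that joins the ND1 module, had 2 of 5 genes lower, 2 higher and 1 that did not pass. These shares are close to the 37.0% lower and 37.9% higher among all genes tested. NDUFAF1, a founding member of that complex, had the largest fall, from 10.7, 11.9 and 10.3 to 6.44, 6.28 and 6.23 FPKM (log2 fold change -0.71 ± 0.06 SE, adjusted p = 9.20e-06). TIMMDC1 had the largest rise, from 12.6, 13.5 and 13.2 to 19.6, 17.7 and 17.8 FPKM (log2 fold change 0.46 ± 0.05 SE, adjusted p = 5.84e-05). The groups did not overlap for either gene, and the genes lie on chr15:41387349-41402519, minus strand, and chr3:119498532-119525090, plus strand.

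TMEM126B, a membrane anchor of the complex, was lower in SK/EPI cells (log2 fold change -0.26). ECSIT, an adaptor first described in immune signalling, was higher, at 15.02, 14.3 and 15.3 FPKM in SK-BR-3 and 16.1, 18.7 and 16.6 FPKM in SK/EPI libraries (log2 fold change 0.19 ± 0.06 SE, adjusted p = 0.0161). This call was lost without SK-BR-3 replicate 2 (adjusted p = 0.0555). ACAD9, related to the acyl-CoA dehydrogenases, passed in neither comparison, with log2 fold changes of -0.04 ± 0.04 and -0.03 ± 0.03 (SE) and libraries between 11.96 and 14.4 FPKM throughout. After silencing, ECSIT was the 1 gene of these 5 that passed, a share close to the 19.4% of all genes tested that were higher. It rose from 18.2, 18.3 and 17.9 to 22.3, 22.9 and 22.9 FPKM (limma, log2 fold change 0.31 ± 0.02 SE, adjusted p = 7.43e-05). ECSIT was the only member called higher in both comparisons.

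The remaining MCIA genes and TIMMDC1 did not pass after silencing. NDUFAF1 was at 9.70, 8.98 and 8.09 FPKM with the control siRNA and 7.95, 7.37 and 8.29 FPKM with the BCRP siRNA (log2 fold change -0.16 ± 0.07 SE, adjusted p = 0.102). It was called lower when SK/EPI-siNC replicate 3 was left out (adjusted p = 0.0324). TIMMDC1 was at 14.8, 15.2 and 15.99 against 16.2, 16.4 and 17.1 FPKM (log2 fold change 0.10 ± 0.04 SE, adjusted p = 0.0579), TMEM126B at 13.8, 14.4 and 12.6 against 12.8, 13.4 and 14.1 FPKM (log2 fold change -0.01 ± 0.05 SE, adjusted p = 0.881), and ACAD9 at 12.8, 12.5 and 12.9 against 12.9, 11.96 and 12.6 FPKM. The libraries were apart for TIMMDC1 and overlapped for the other 3.

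Factors that act on the Q module were lower in SK/EPI cells in 4 of 5 cases, beside 37.0% of all genes tested. NDUFAF5, which hydroxylates an arginine of NDUFS7, was at 2.70, 2.53 and 2.61 FPKM in SK-BR-3 and 1.75, 1.91 and 1.59 FPKM in SK/EPI libraries (log2 fold change -0.40 ± 0.06 SE, adjusted p = 5.93e-04). It had the largest rise of all factors after silencing, from 1.40, 1.41 and 1.45 to 2.39, 2.21 and 2.34 FPKM (log2 fold change 0.45 ± 0.05 SE, adjusted p = 4.50e-04). NDUFAF4, which binds the early Q module together with NDUFAF3, was likewise lower and then higher (log2 fold changes -0.53 and 0.41). Its partner NDUFAF3 was called the other way, at 14.4, 15.2 and 13.1 FPKM in SK-BR-3 and 15.9, 18.8 and 17.9 FPKM in SK/EPI libraries (log2 fold change 0.28 ± 0.07 SE, adjusted p = 0.00754). It did not pass after silencing, at 14.03, 13.8 and 14.1 against 14.8, 14.6 and 14.5 FPKM (log2 fold change 0.06 ± 0.03 SE, adjusted p = 0.102). The pair was therefore called in opposite directions in the resistant line, with no overlap between groups for either gene. Over all genes tested, 39.4% were higher and 38.3% lower without overlap. Of the NDUFAF3 exon bases, 21.7% lie opposite DALRD3 (231 to 556 reads). Reads of these 2 genes cannot be told apart there, and the part of DALRD3 in this rise was not tested.

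NDUFAF6, related to phytoene synthases, and NDUFAF7, an arginine methyltransferase, were lower in SK/EPI cells (log2 fold changes -0.34 and -0.22) and did not pass after silencing. NDUFAF6 was at 0.965, 0.697 and 0.909 against 0.906, 1.05 and 1.15 FPKM (log2 fold change 0.13 ± 0.07 SE, adjusted p = 0.202) and NDUFAF7 at 6.23, 5.81 and 6.23 against 5.83, 5.28 and 5.78 FPKM (log2 fold change -0.10 ± 0.05 SE, adjusted p = 0.164), with overlapping libraries in both. FOXRED1, a flavin-containing factor of the later steps, was lower in SK/EPI cells and higher after silencing (-0.43 and 0.16). NUBPL, which delivers iron-sulfur clusters, was higher in SK/EPI cells, at 1.93, 2.12 and 2.19 against 2.71, 2.87 and 2.75 FPKM (log2 fold change 0.29 ± 0.06 SE, adjusted p = 0.00205), and was at 2.26, 2.37 and 2.29 against 2.17, 2.27 and 2.64 FPKM after silencing, where the groups overlapped. NDUFAF2, the paralog of NDUFA12 that holds its place during assembly, passed in neither, at 24.5, 21.1 and 19.6 FPKM in SK-BR-3 against 21.3, 22.5 and 22.7 FPKM in SK/EPI libraries. After silencing it was at 16.8, 15.7 and 16.3 against 18.4, 17.4 and 21.6 FPKM, apart but just over the threshold (log2 fold change 0.22 ± 0.07 SE, adjusted p = 0.0508), and it passed in 8 of the alternative analyses.

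**Figure D4:**
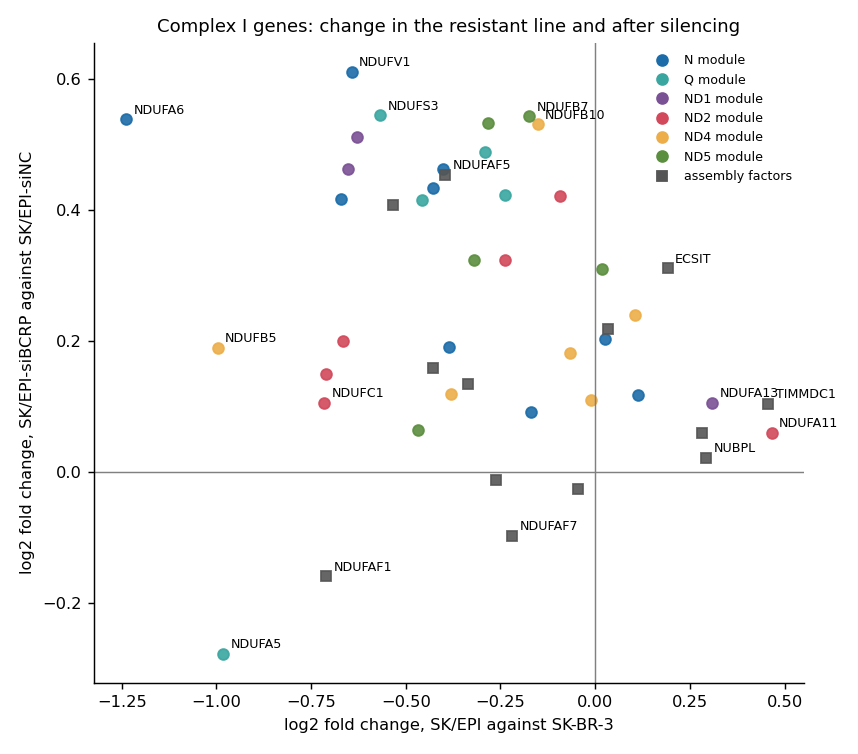
Log2 fold change in SK/EPI against SK-BR-3 (x axis) and in SK/EPI-siBCRP against SK/EPI-siNC (y axis) for the 47 complex I genes tested in both, with subunits as circles coloured by module and assembly factors as grey squares. Most subunits lie in the upper left, NDUFA5 lies at the lower left, and NDUFA11, TIMMDC1, NDUFA13 and NUBPL lie at the right near 0 on the y axis.

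The comparisons share no library, so their calls can be set side by side. Of the 29 members lower in SK/EPI cells, 19 were higher after silencing (65.5%), 1 was lower and 9 did not pass. Among all genes tested in both, 1289 of 5394 that were lower in SK/EPI cells were higher after silencing (23.9%). By group, this held for 16 of 22 lower subunits (72.7%) and 3 of 7 lower assembly factors (42.9%). Of the 7 members higher in SK/EPI cells, ECSIT was also higher after silencing and the other 6 did not pass. Among all genes tested in both, 1223 of 5908 that were higher in SK/EPI cells were also higher after silencing (20.7%). A further 7 subunits, NDUFA2, NDUFA10, NDUFB4, NDUFB6, NDUFB10, NDUFB7 and NDUFB8, were higher after silencing without a call in SK/EPI cells. The siRNA groups and the untransfected groups were in separate tables, so silenced SK/EPI cells were not tested against SK-BR-3 cells.

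The mitochondrial and remaining nuclear partners of these genes were looked at from a list of 18 other complex I genes, of which 5 were higher and 8 lower in SK/EPI cells and 9 higher and 1 lower after silencing. The shares of all genes tested were 37.9% higher and 37.0% lower in the former comparison and 19.4% higher and 18.7% lower in the latter. The 7 ND subunits encoded in mitochondrial DNA had 2 genes higher in SK/EPI cells, MT-ND1 (log2 fold change 0.96 ± 0.07 SE, adjusted p = 8.52e-06) and MT-ND2 (0.37 ± 0.07, adjusted p = 0.00155, limma), and the other 5 did not pass. After silencing 4 of these 7 were higher, by 0.16 to 0.22 on the log2 scale. Near-identical copies of mitochondrial sequence lie in the nuclear genome, so the counts of these transcripts are uncertain. CHCHD4 and AIFM1, which import the twin-CX9C subunits into the intermembrane space, were lower in SK/EPI cells (log2 fold changes -0.47 and -0.35) and higher after silencing (0.61 and 0.38). DMAC1, a factor for the far membrane arm, was higher in SK/EPI cells (0.88) and DMAC2, another assembly factor, was lower in both comparisons (-0.49 and -0.28).

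The other respiratory complexes moved in the same directions as the complex I subunits. Of 24 nuclear subunits of complexes II to IV, 19 were lower and 1 higher in SK/EPI cells (median -0.43), and 21 were higher and 2 lower after silencing (median 0.41). Of 15 ATP synthase subunits, 10 were lower and 1 higher in SK/EPI cells (median -0.38), and 14 were higher after silencing (median 0.47). The corresponding medians of the complex I subunits were -0.35 and 0.31. The share of genes lower in SK/EPI cells that were higher after silencing was 17 of 19 for complexes II to IV and 10 of 10 for ATP synthase, beside 16 of 22 for complex I subunits. Whether these shares differ was not tested.

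Several members share exons with other annotated genes. For 22 members more than 5% of the merged exon length lay inside exons of another gene, and for 6 members more than 50% of the coding bases did. These 6 were NDUFB8 (85.2% shared on the same strand), NDUFV2 (84.7%), NDUFA7 (78.3%), NDUFC2 (76.9%), NDUFA9 (67.9%) and NDUFA13 (55.2%). NDUFV2, NDUFA7 and NDUFA13 had at most 65, 18 and 83 reads in any library. The overlapping NDUFC2-KCTD14 and AP005263.1 had 0 reads in every library. A processed pseudogene named after NDUFV2 took up to 63.2% of their joint reads. FPKM was therefore compared between libraries for these genes and not between genes. After silencing 2 of the 6 were called higher, beside 21 of the other 29 subunits, and in SK/EPI cells the subunits without them had 20 lower and 2 higher of 29 (median -0.39). The part of the shared exons in the missing calls was not tested. The library kit does not mark strand, so for NDUFS7 and NDUFB2, with 48.5% and 45.2% of coding bases opposite another gene, and for NDUFA1 and NDUFB11, with 44.5% and 44.9% of exon bases opposite RNF113A and RBM10, reads of the overlapping pair cannot be told apart. RNF113A had 233 to 413 reads and RBM10 743 to 1305. Opposite NDUFS7, AC005329.3 and AC005329.1 had only 1 to 14 and 0 to 5 reads, while BRAF, opposite NDUFB2, had 300 to 516. Other opposite genes with many reads were HIF1AN (753 to 1165), along 16.3% of NDUFB8 exon bases, and FAM126B (279 to 421), along 19.8% of those of NDUFB3. RPS28 (994 to 3164 reads) lay opposite 6.30% of NDUFA7 exon bases.

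**Figure D5:**
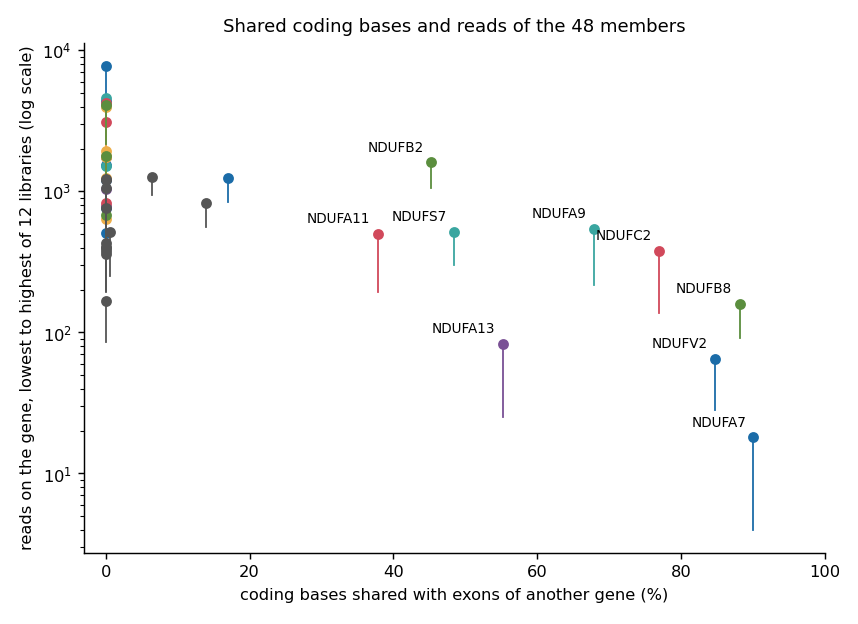
Reads counted on each of the 48 complex I genes, from the lowest to the highest of 12 libraries (vertical lines, log scale, with a point at the highest), against the percentage of its coding bases that lies inside exons of another annotated gene on either strand, coloured by module as in the plot of log2 fold changes. NDUFA7, NDUFV2 and NDUFA13, all sharing over 50%, have the fewest reads among the subunits.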

How the data were processed

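Poly-A RNA of 12 libraries was prepared with the NEBNext Ultra kit. The submitters' processing notes name HISAT2 2.0.5, featureCounts 1.5.0-p3, DESeq2 1.16.1 and hg38; the authors deposited 2 FPKM tables, 1 for SK-BR-3 with SK/EPI and 1 for the siRNA groups. How multi-mapping and ambiguous reads were counted is not given in the sources used here. Exon lengths and overlaps came from GENCODE 29 and upstream sequences from RefSeq. FPKM times exon length gave whole reads (within 0.1) for all genes above 0. Reads on genes made up 99.8% to 101% of the read total used for scaling in SK-BR-3 and 92.8% to 95.4% in SK/EPI libraries. These shares were 89.5% to 90.1% in SK/EPI-siNC and 90.4% to 90.7% in SK/EPI-siBCRP libraries. FPKM thus carries a scaling difference between groups, which the alternative scaled by reads on genes removes. Genes were tested if they reached 15 reads in all and, in 3 libraries, 10 reads scaled to the median library, separately in each table, with limma 3.58.1 (trend, R 4.3.3) on log2(FPKM + 1), adjusted over all genes tested; folds of low genes are understated on that scale. The fits were tested on simulated data. The members, lists and rule for named genes were chosen with earlier results of these data known. By that rule, values in every library are given for the called genes of largest rise and fall per module and comparison, those called against their module, and those not called after silencing; other genes were named after their values were seen. Replicate numbers did not pair libraries (correlations of same-numbered deviations -0.0532 to -0.00220 and 0.00819 to 0.0588). Replicate libraries differed by more than sampling noise (chi-square per degree of freedom 1.64 to 4.27). Alternatives were other filters, pseudocounts, scalings, voom on recovered reads, a replicate block, exon length adjustment, stricter thresholds and leaving out each library.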

Additional observations from a re-analysis of the deposited data

How the results depend on the processing

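No member's fold change that had been called changed sign under the alternatives run. Calls kept in every refit numbered 28 of 29 falls and 5 of 7 rises in SK/EPI cells, and 24 of 27 rises and the 1 fall after silencing; NDUFA1, NDUFV3 and ECSIT in the former and NDUFA1, NDUFB6 and NDUFB8 in the latter did not keep theirs. With the stricter thresholds counted too, 25 of 29 falls and 5 of 7 rises were kept in SK/EPI cells, and 19 of 27 rises and the 1 fall after silencing. With libraries scaled by reads on genes, or with the mitochondrial chromosome left out, 5 subunits instead of 3 were higher in SK/EPI cells in each case (NDUFA2 and NDUFB6 were added), as the median of all genes moved from 0.01 to 0.06 and 0.07 and that of the members from -0.29 to -0.24 and -0.22. Leaving out 1 library at a time gave 28 to 30 falls and 6 to 7 rises in SK/EPI cells, and 1 to 2 falls after silencing, of which 0 to 1 were assembly factors; the second fall, NDUFAF1, appeared without SK/EPI-siNC replicate 3. With the replicate block, which the numbers do not warrant, 7 members were higher and 30 lower in SK/EPI cells and 28 higher and 1 lower after silencing. Leaving out the 6 members with over 50% of coding bases shared, an alternative chosen after seeing the data, gave 6 higher and 27 lower, and 25 higher and 1 lower. The median log2 fold change of the ND2 module in SK/EPI cells was -0.67 without NDUFA11 and the 3 other subunits at module borders. It was -0.24 without the members that share coding bases. After silencing the median of the N module was 0.20 and 0.43 in these cases, and that of the ND5 module 0.43 in the latter. Each is a median over fewer genes that depends on which genes were left out. NDUFA7 and NDUFV2 had 4 to 18 and 28 to 65 reads, so small changes in them were not detectable at this depth; the part of shared exons was not tested.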
